A study of Mus musculus with 6 samples.

Results

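The neurofilament subunits of cultured mouse cortical neurons were examined here, at every cytosine of their mRNAs that the deposited RNA bisulfite sequencing (RNA BS-seq) lists hold. Members were the 4 genes Nefl, Nefm, Nefh, and Ina, taken from the gene column of the lists, out of 16003 genes with a listed cytosine. They hold 2346 of the 5240657 listed cytosine positions: 662 in Nefl, 595 in Nefm, 155 in Nefh, and 934 in Ina. In GRCm38 Nefl lies at chr14:68083863-68089095 (plus strand), Nefm beside it at chr14:68119283-68124846 (minus strand), Nefh at chr11:4938754-4948064 (minus strand), and Ina at chr19:47014698-47025327 (plus strand). Of the Ina positions 454 were coding, 411 lay in the 3′ UTR, 24 in the 5′ UTR, and 45 in introns, and coding positions were also the most frequent kind in Nefl (419), Nefm (517), and Nefh (151). RNA BS-seq reads 5-methylcytosine (m5C) in RNA at single bases, since bisulfite turns an unmodified cytosine into a base sequenced as T and leaves a methylated one to be sequenced as C. The methylation level is the share of unconverted (C) reads among C and T reads, and coverage is the number of reads over the position.

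Poly(A) RNA came from cortical neurons of E16.5 C57BL/6 WT embryos, male and female pooled, which were grown for 7 days in vitro. All cultures, the 0 h ones included, were silenced overnight from day 6 with 1 µM tetrodotoxin (TTX), a sodium channel blocker, and 100 µM DL-AP5, an NMDA receptor antagonist. Depolarization used KCl at 55 mM and lasted 0 h (no depolarization), 2 h, or 6 h, each time point being sequenced as a pair of biological replicates (6 libraries). Every time point was compared with both others, so the 3 comparisons share libraries and are not independent. Values are listed below in the order of the libraries, replicate 1 before replicate 2, and tests in the order 2 h against 0 h, 6 h against 0 h, and 6 h against 2 h.

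Neurofilaments are the intermediate filaments of neurons. They fill axons, set axon caliber, and are built from a light subunit (Nefl), a medium subunit (Nefm), a heavy subunit (Nefh), and alpha-internexin (Ina), which share a central coiled-coil rod flanked by a head and a tail. Ina is the early subunit of developing neurons, Nefl and Nefm join it as axons grow, and Nefh, with its long phosphorylated tail, comes late. The 4 proteins, translated from GENCODE transcripts and aligned, were related: Nefl and Ina shared 50% of aligned residues, Nefl and Nefm 47.3%, and Nefl and Nefh 37.0%.

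The position lists gave 2 m5C sites in these genes that belong to the study's list of high-confidence positions, which was chosen on these same samples and of which 438 positions were used here. Their sequences open the account, each with 10 nt on either side and the methylated cytosine in capitals, on the strand of the mRNA and 5′ to 3′. The Ina site is chr19:47021948 (GRCm38, plus strand), shown with chr19:47021938-47021958, and the Nefm site is chr14:68124520 (minus strand), shown with chr14:68124510-68124530.
Ina site: attgagatcgCagcttacagg
Nefm site: cccgctctaaCgagaaagagc

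The Ina site lay in exon 2, which is 125 nt long, 9 nt before the exon's end, and was the middle base of alanine codon 394. The last base of its window is therefore intronic and not part of the mRNA. The same holds for the windows of Nefl, Nefm, and Nefh aligned with it below. The Nefm site lay in exon 1, which is 1107 nt long, and was the third base of asparagine codon 98. Neither window had a G at each of the positions +2, +3, and +4 after the cytosine, a context held by 8 of the 626 member positions listed in all 6 libraries (1.28%) and by 4432 of 216113 such positions of the series (2.05%). The cytosines of the other subunits that align with these sites in the protein are shown for comparison, again as the capital in the middle of 21 nt. For the Ina site these are chr14:68086079-68086099 (plus strand) in Nefl, chr14:68122820-68122840 (minus strand) in Nefm, and chr11:4943850-4943870 (minus strand) in Nefh.
Nefl, aligned with the Ina site: atcgagattgCagcttacagg
Nefm, aligned with the Ina site: atcgagatcgCcgcgtacagg
Nefh, aligned with the Ina site: attgagattgCcgcttacagg

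Counted from 1 at the 5′ end of the window, and with the Ina base first, these differ from the Ina site by T3C and C9T in Nefl, by T3C, A12C, and T15G in Nefm, and by C9T and A12C in Nefh. The 21 residues around the site were the same in all 4 proteins. For the Nefm site, Ina has a cytosine in the same asparagine codon at chr19:47015033, shown with chr19:47015023-47015043 on the plus strand.
Ina, aligned with the Nefm site: tccgcactaaCgagaaggagc

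With the Nefm base first, this window differs from that of the Nefm site by C1T, T6A, and A17G. Nefl has no cytosine there (C11A). The Nefh cytosine aligned with the Nefm site, chr11:4947653 in serine codon 94, was listed in no library.

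The Ina site had a level near 24% in every library. Its level was 24.1% (1315 of 5459 reads) and 24.1% (1073 of 4454) at 0 h, 23.1% (2025 of 8784) and 23.9% (1637 of 6859) at 2 h, and 23.7% (1684 of 7092) and 24.1% (1785 of 7401) at 6 h. Both 2 h levels lay below both 0 h levels, the 6 h levels overlapped with both, and the 6 levels spanned 1.06 percentage points, the smallest span among the 396 sites of the list that were present in all 6 libraries, whose median span was 14.2 points. The span grows as reads become fewer, and the Ina site was among the most deeply covered. Among the 53 listed sites with at least 500 reads in each library the median span was 8.42 points, and the Ina site again had the smallest. These sites were not matched for depth: the median of their lowest coverage was 894 reads, against 4454 at the Ina site. A site could also enter the list through a single time at which it was high, which favours wider spans.

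The Ina site passed in no comparison. The mean level differed by -0.64 points between 0 h and 2 h (95% Newcombe interval of the difference over summed reads -1.76 to 0.38; Fisher's exact test, two-sided, adjusted p = 0.272; 60.6% of 406 sites passed). It differed by -0.16 points between 0 h and 6 h (-1.25 to 0.93; exact adjusted p = 0.884; 41.4% of 399 sites passed), and by 0.47 points between 2 h and 6 h (-0.43 to 1.49; exact adjusted p = 0.395; 47.0% of 413 sites passed). PCR copies were not separated, so these intervals and all others given cover counting error only. The 95% Wilson intervals of single libraries were as narrow as 22.2 to 23.9% (2 h replicate 1) and no wider than 22.9 to 25.4% (0 h replicate 2).

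The cytosines around the Ina site were nearly all read as T. Over summed reads, the 8 listed cytosines within 30 nt of the Ina site stood between 0.0533% and 0.132%. The aligned cytosine of Nefl, in an alanine codon with the same protein context, was not listed in 0 h replicate 1 and stood at 0.0545% in 0 h replicate 2, 0.0616% and 0.0474% (2 h), and 0.0698% and 0.0788% (6 h). The aligned cytosine of Nefm was listed only in 2 h replicate 1 (0.329%), 2 h replicate 2 (0.229%), and 6 h replicate 1 (0.213%), and that of Nefh in no library. A cytosine is absent from a list when it has no unconverted read or fewer than 10 reads. Listed cytosines within 30 nt had a median coverage of 1730 reads around the Nefl base in 0 h replicate 1, and of 313 (0 h replicate 2) and 1040 reads (6 h replicate 2) around the Nefm base, all far above 10 reads. None was listed near the Nefm base in 0 h replicate 1, and near the Nefh base only 1, with 65 reads in 0 h replicate 2, so that for these the lists do not say which holds. Of the subunits, Ina alone therefore had a level over 1% at this aligned base among those listed.

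The Nefm site had a lower and less even level, highest in the 2 h libraries. It stood at 8.91% (58 of 651 reads) and 9.62% (53 of 551) at 0 h, 10.5% (80 of 762) and 15.4% (103 of 669) at 2 h, and 8.02% (116 of 1446) and 6.89% (129 of 1873) at 6 h. The 3 time points did not overlap, with 6 h lowest and 2 h highest, but the 2 libraries at 2 h lay further apart than any other replicates of this site (exact p = 0.00688, exact adjusted p over the listed sites 0.205). Only the 2 h libraries passed the study's standard filter (at least 20 reads, of them at least 6 methylated, and a level of 10% or more), so the site was on the list tested through the time at which it was highest. That choice favours a higher level at 2 h in both comparisons with 2 h, and their tests are given as a description that supports no difference.

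**Figure D1:**
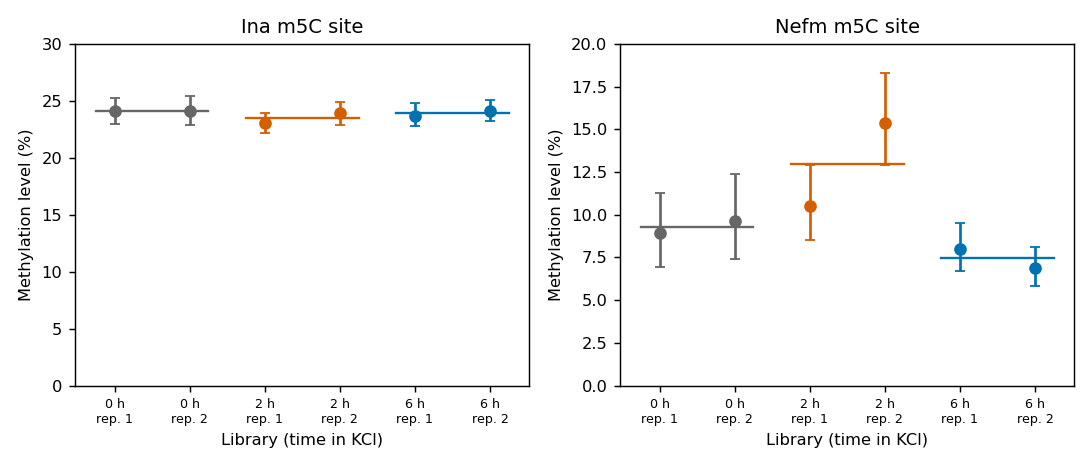
Methylation level (%) of the Ina site (left) and the Nefm site (right) in each of the 6 libraries, with points for libraries, bars for 95% Wilson intervals, and horizontal lines for the mean of a time point. The Ina levels lie between 23.1% and 24.1%, while the Nefm levels run from 6.89% (6 h replicate 2) to 15.4% (2 h replicate 2); the 2 panels have different axes.

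From 0 h to 2 h the mean level of the Nefm site went from 9.26% (SD 0.502, n = 2) to 12.9% (SD 3.46, n = 2). This was 3.68 points higher by the means and 3.55 by the summed reads (95% interval 1.15 to 5.93), and was past the threshold of Fisher's exact test (adjusted p = 0.00841), with the choice of the site favouring this direction. In that comparison 243 of 406 listed sites (59.9%) passed as higher at 2 h, so that passing was the more frequent outcome. Summed reads leave out the spread between replicates. With that spread kept, limma gave a difference of 0.51 in log2 odds (SE 0.32, adjusted p = 0.255), where 24.4% of the 406 sites passed. The difference also rested on 2 h replicate 2: without it the level was 1.23 points higher than at 0 h and did not pass (exact adjusted p = 0.486), and without 2 h replicate 1 it was 6.13 points higher. Without 0 h replicate 1 it was 3.33 points higher and also did not pass (exact adjusted p = 0.0894).

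From 2 h to 6 h the Nefm site went to 7.45% (SD 0.802, n = 2). The difference was -5.49 points by the means, again in the direction that the choice of the site favours, and was past the threshold of Fisher's exact test (adjusted p = 8.33e-08), in a comparison where 157 of 413 sites (38.0%) passed as lower. It passed without any single library, at -7.94 to -3.04 points. In limma the same difference was -0.86 in log2 odds (SE 0.34, adjusted p = 0.152), where 10.7% of the sites passed. Among the 5748 positions of the series with at least 100 reads in each library and a level of at least 1% over summed reads, a choice that did not use the 2 h libraries apart from the others, limma gave the site adjusted p = 0.806 (2 h against 0 h) and 0.705 (6 h against 2 h), and 0 positions passed. Between 0 h and 6 h the level differed by -1.81 points (95% interval -3.81 to -0.07) and did not pass (exact adjusted p = 0.0995; 5.76% of 399 sites passed as lower). In limma 0 of the 399 sites passed between 0 h and 6 h.

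The Nefm site was read more often at 6 h than before. Its unmethylated reads numbered 593 and 498 (0 h), 682 and 566 (2 h), and 1330 and 1744 (6 h), and its methylated reads 58 and 53, 80 and 103, and 116 and 129. Both kinds of read were thus most frequent at 6 h, the time with the lowest level. As at the Ina site, the surrounding bases were low: 16 listed cytosines within 30 nt stood between 0.0571% and 0.358%. The Ina cytosine aligned with the Nefm site was not listed in 0 h replicate 2 (median coverage 4354 reads at listed cytosines within 30 nt) and stood between 0.0676% and 0.119% in the other 5 libraries, so that in the libraries that listed them neither site had a counterpart over 1% in the other subunit.

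**Figure D2:**
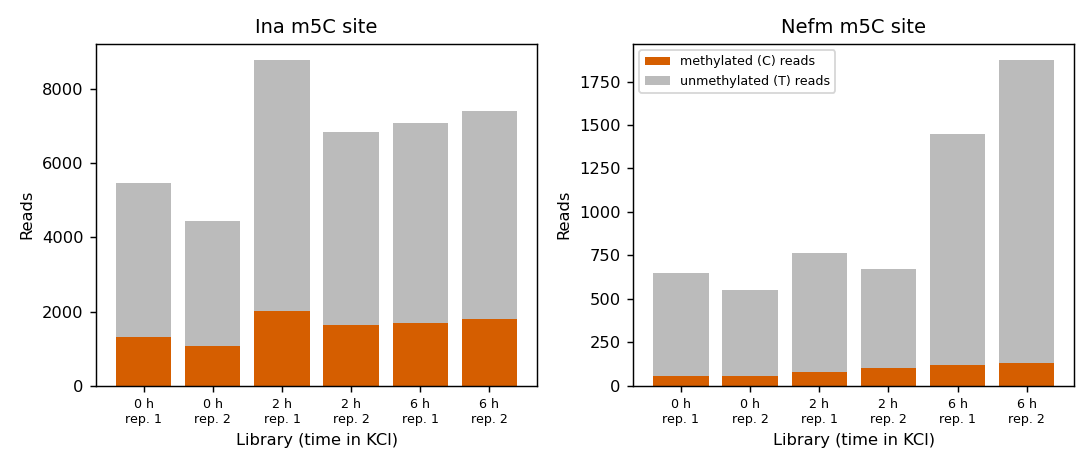
Reads over the Ina site (left) and the Nefm site (right) in each library, stacked as methylated (C) reads in orange and unmethylated (T) reads in grey. The orange share of the Ina reads stays between 23.1% and 24.1%, while the Nefm reads grow to 1446 and 1873 at 6 h with an orange part of 116 and 129 reads; the 2 panels have different axes.

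Most other listed positions of the 3 measured mRNAs had a low level. Over positions listed in all 6 libraries the median level was 0.0933% in Nefl (103 positions), 0.122% in Nefm (12 positions), and 0.0884% in Ina (511 positions). At deeply covered listed cytosines with a level under 1%, the library share of unconverted reads was 0.0838 to 0.0870% in 5 libraries and 0.115% in 6 h replicate 1. That share leaves out cytosines without an unconverted read and those at 1% or more. Each member position counted here has at least 1 unconverted read in every library, a floor that rises as coverage falls. The medians and that share come from unlike depths, and their closeness was not tested. A level over 1% was found at 36 of the 626 member positions (5.75%), against 10923 of 216113 positions of the whole series (5.05%). Of the 36, Ina held 33 (2 coding and 31 in the 3′ UTR), Nefm 2, and Nefl 1.

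**Figure D3:**
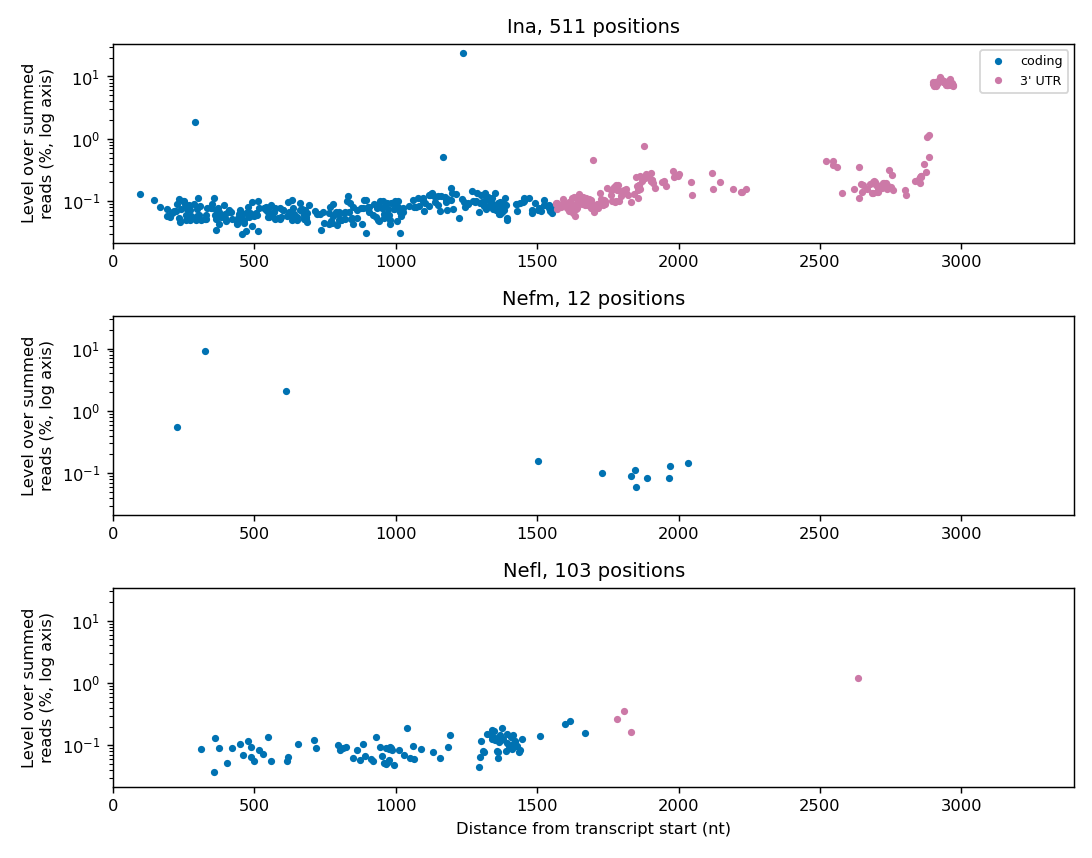
Level over the summed reads of the 6 libraries (%, log axis) against distance from the transcript start (nt) for each position of Ina, Nefm, and Nefl listed in all 6 libraries, with coding positions in blue and 3′ UTR positions in pink. Most points lie near 0.1%, the Ina and Nefm sites stand alone at 23.8% and 9.06%, and a group of Ina positions near the transcript end stands between 7% and 10%, where coverage is low.

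3 further coding or 3′ UTR positions with at least 100 reads in each library stood out within their gene by level. They are shown with the cytosine in capitals: a serine codon of Ina exon 1 at chr19:47014988 (chr19:47014978-47014998, plus strand), a coding position of Nefm exon 1 at chr14:68124234 (chr14:68124224-68124244, minus strand), and a 3′ UTR position of Nefl at chr14:68088350 (chr14:68088340-68088360, plus strand).
Ina, serine codon: tggacctgagCcaggcggcgg
Nefm, exon 1: ggcgcggctgCgggacgacac
Nefl, 3′ UTR: gtaagattatCagaggttatc

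The Ina serine position stood at 1.31% (71 of 5438 reads) and 1.55% (65 of 4208) at 0 h, 1.73% and 1.93% (2 h), and 2.10% and 2.12% (6 h). The time points did not overlap, in the order 0 h, 2 h, 6 h, with coverage of 4208 to 9052 reads. The differences did not pass in limma (log2 odds 0.36, 0.58, and 0.21, each with SE 0.46, and adjusted p = 0.838, 0.734, and 0.872). The SD between replicates was 0.169 points (0 h), 0.137 (2 h), and 0.0150 (6 h). The SE was close to that of the Ina site in the same fit (0.45), since limma draws each variance toward one shared by all positions tested. It therefore does not measure the spread of this position alone, and the test cannot decide whether the time points differed. Of the 5748 positions of the series at this level and depth, limma passed 0 in each comparison (0%), with 611, 552, and 413 at an unadjusted p under 0.05. The 22 listed cytosines within 30 nt stood between 0.0448% and 0.111%.

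The Nefm exon 1 position stood at 2.37% and 1.58% (0 h), 2.12% and 2.96% (2 h), and 1.35% and 2.26% (6 h), with all time points overlapping (limma adjusted p = 0.869, 0.968, and 0.755). The Nefl 3′ UTR position stood at 1.35%, 5.33%, 1.01%, 0.750%, 1.37%, and 0.488% in the same order of libraries. Its highest value came from 12 of 225 reads in 0 h replicate 2 and lay apart from the other libraries, and no comparison passed (limma adjusted p = 0.505, 0.526, and 0.976). The next positions by the same measure were low, with 0.352% in Nefl, 0.546% in Nefm, and 1.15% in Ina, the last with 16 methylated of 1395 reads.

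The group of higher Ina positions near the 3′ end lay where coverage was shallow. Across 182 nt at chr19:47024986-47025167, which lie 341 to 160 nt before the transcript end, 71 cytosines were listed in at least 1 library. Their median coverage was 26.5 and 23.0 reads (0 h), 32.0 and 31.0 (2 h), and 31.0 and 29.5 (6 h), so that the single unconverted read needed for listing already gives a level of a few percent. Their summed share of unconverted reads was 4.19% and 5.21% (0 h), 4.44% and 5.03% (2 h), and 13.0% and 8.85% (6 h). In 6 h replicate 1, the library with the highest unconverted share at deeply covered cytosines library-wide (0.115%), every one of the 71 had 2 to 7 methylated reads and 20 passed the standard filter, with 6 or 7 methylated reads of 30 to 42, and in the other 5 libraries none did. The part of that library's unconverted share in these values was not tested.

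Apart from these 20, the standard filter was passed by the 2 m5C sites only. It was passed by 1 member position in each 0 h library (Ina), 2 in each 2 h library (Ina and Nefm), 21 in 6 h replicate 1, and 1 in 6 h replicate 2 (Ina). The 45 intronic positions of Ina had 10 to 18 reads, at most 3 methylated reads, and passed nowhere.

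The Nefl mRNA, for the light subunit on which the others assemble, gained coverage with depolarization. Mean coverage over its 103 positions listed in all 6 libraries was 1887 and 1607 reads (0 h), 4251 and 3615 (2 h), and 3838 and 4425 (6 h). The 4 libraries after KCl lay above both 0 h libraries, and 2 h and 6 h overlapped in reads and not after centring (log2 0.39 and 0.43, against 0.49 and 0.56). On the log2 scale, relative to each library's median gene, coverage was higher by 1.00 (SE 0.05) at 2 h than at 0 h, a fold of 2.00 (limma adjusted p = 8.08e-05). At 6 h it was higher than at 0 h by 1.12 (SE 0.05), a fold of 2.17 (adjusted p = 2.97e-05). The 2 h and 6 h levels differed by 0.12 (SE 0.05), which did not pass in limma (adjusted p = 0.106) and passed in edgeR (0.16, adjusted p = 0.0308).

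Ina, the most deeply covered of the 4, was also higher after KCl. Its mean coverage over 511 positions was 4376 and 3627 reads (0 h), 7070 and 6179 (2 h), and 5881 and 6173 (6 h). Again both later times lay above 0 h, and both 6 h libraries lay below both 2 h libraries, in reads and after centring. On the same log2 scale it was higher by 0.56 (SE 0.05) at 2 h than at 0 h, a fold of 1.47 (adjusted p = 9.56e-04), and by 0.47 (SE 0.05) at 6 h than at 0 h, a fold of 1.39 (adjusted p = 5.25e-04). The difference between 2 h and 6 h was -0.09 (SE 0.05, adjusted p = 0.202).

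Both tested members passed as higher at 2 h than at 0 h, where 26.3% of 1613 genes passed in either direction and 227 as higher. Both also passed as higher at 6 h than at 0 h, where 59.1% of genes passed, 435 of them as higher. Neither passed in limma between 2 h and 6 h, where 47.4% of genes did. Coverage here is relative to other mRNAs of the same bulk culture, and fewer cells of a type and less RNA per cell cannot be told apart. Coverage at cytosines is not a count of molecules, and only listed positions carry it.

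Nefm had too few positions in all 6 libraries for that test, and was tested in a fit of log2 coverage on position and library over positions listed in at least 2 libraries, an alternative added after the data had been seen. Over 434 positions its fitted coverage was 576.2 and 467.6 reads (0 h), 680.4 and 567.7 (2 h), and 1274 and 1508 (6 h). The 6 h libraries lay above all others, while 0 h and 2 h overlapped in reads and not after centring (log2 0.23 and 0.22, against 0.43 and 0.42). Relative to the library median, Nefm was higher by 1.38 (SE 0.06) at 6 h than at 0 h, a fold of 2.60 (limma adjusted p = 4.21e-06; 33.7% of 6126 genes passed as higher). It was higher by 1.18 (SE 0.06) at 6 h than at 2 h, a fold of 2.26 (adjusted p = 1.55e-05; 30.7% passed as higher). For 0 h vs. 2 h the difference was 0.20 (SE 0.06, adjusted p = 0.0266; 20.1% passed as higher). This small early difference did not pass over the 12 positions listed in all 6 libraries (0.18, adjusted p = 0.0654), nor without 0 h replicate 1 (0.21, adjusted p = 0.104) or without 0 h replicate 2 (0.20, adjusted p = 0.114).

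**Figure D4:**
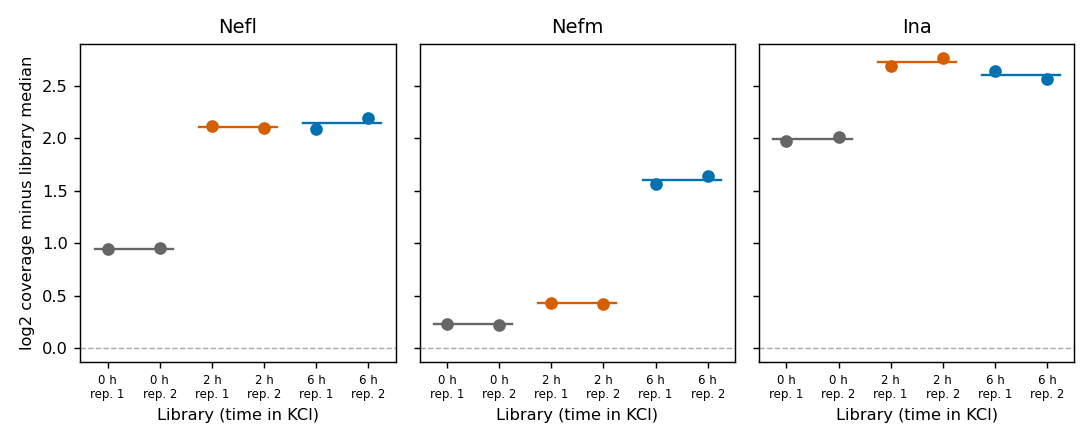
Fitted log2 coverage relative to each library's median gene for Nefl, Nefm, and Ina in the 6 libraries, with points for libraries, horizontal lines for the mean of a time point, and a dashed line at the library median. Nefl and Ina are higher at both 2 h and 6 h than at 0 h, while Nefm is near its 0 h value at 2 h (0.43 and 0.42, against 0.23 and 0.22) and at 1.56 and 1.64 at 6 h.

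The same fit gave folds over 0 h of 2.25 at 2 h and 2.30 at 6 h for Nefl, and of 1.66 and 1.52 for Ina. Nefl and Nefm are neighbouring genes on chromosome 14, and their proportion was not constant. The fitted coverage of Nefm over that of Nefl was 0.613 and 0.604 (0 h), 0.309 and 0.314 (2 h), and 0.694 and 0.684 (6 h). The ratio was thus lowest at 2 h in both replicates, with no overlap between times. Nefl over Ina was 0.487 and 0.479 (0 h), 0.677 and 0.631 (2 h), and 0.685 and 0.774 (6 h), and Nefm over Ina was 0.299 and 0.289, 0.209 and 0.198, and 0.476 and 0.529. Ina was the deepest of the 3 in every library, followed by Nefl and then Nefm. These ratios compare coverage per position and carry no test.

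Nefh, the heavy subunit, was barely listed. Of its 1134 exonic cytosines 13.7% were listed in any library, against 83.2% in Nefl, 76.7% in Nefm, and 94.6% in Ina. It had 69 and 22 listed positions (0 h), 64 and 4 (2 h), and 6 and 4 (6 h), none in all 6 libraries, so it entered no test. Their median coverage was 120 and 144.5 reads (0 h), 31.0 and 15.5 (2 h), and 66.0 and 71.5 (6 h). Both 0 h libraries were the highest and both 2 h libraries the lowest, but these medians are over different positions.

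Few Nefh positions were shared between times, and their coverage was not scaled for depth. Every 2 h value among them came from 2 h replicate 1 alone, and each value of another time from a single library too. At the 4 positions listed at both 0 h and 2 h, of which 3 lay close together, coverage at 2 h was 0.195 to 0.243 of that at 0 h. At the 4 positions listed at both 2 h and 6 h, the 6 h coverage was 1.46 to 1.65 times the 2 h coverage, and at the 1 position listed at both 0 h and 6 h it was 0.470 of that at 0 h. No Nefh position passed the standard filter. Of its 169 library positions, 144 had 1 methylated read, and 114 lay in runs of neighbouring cytosines within a library, such as 28 positions at chr11:4941019-4941131 in 0 h replicate 1.

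**Figure D5:**
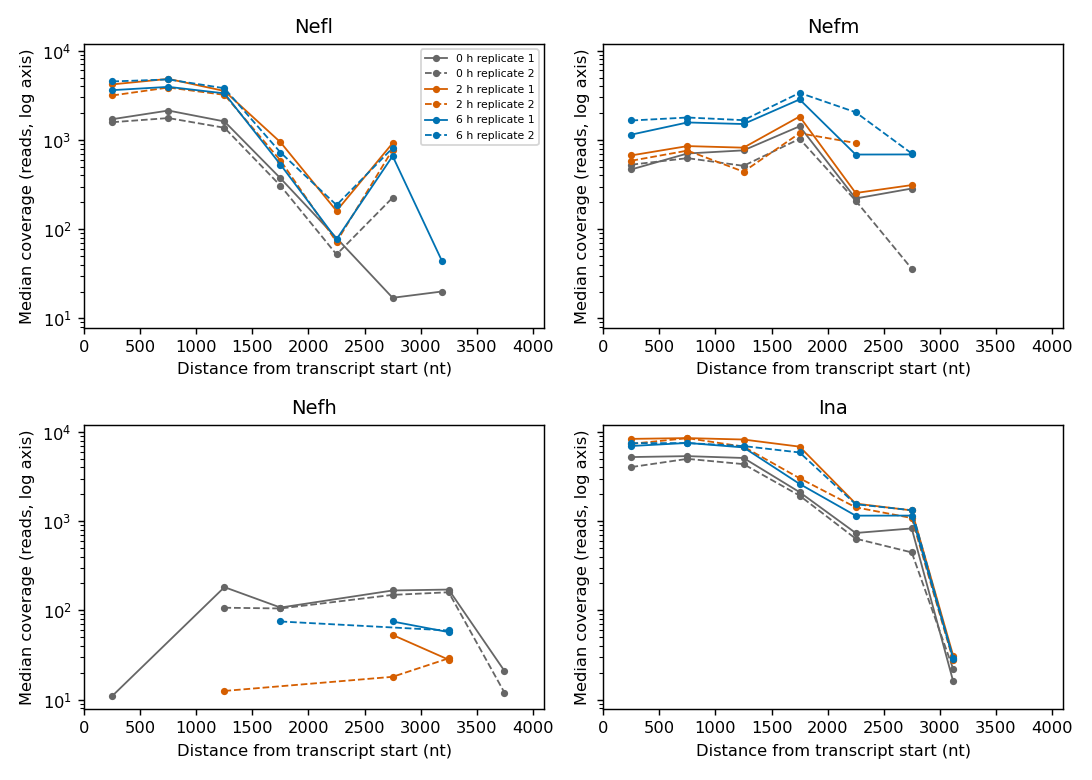
Median coverage of listed positions (reads, log axis) in 500-nt bins against distance from the transcript start (nt) for the 4 genes, with a line per library (grey 0 h, orange 2 h, blue 6 h; solid replicate 1, dashed replicate 2). The 0 h lines run below the others over the coding part of Nefl and Ina and above them in Nefh in the bins where others were listed, and coverage falls toward the 3′ end of Ina.

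Coverage was uneven along the transcripts. In 500-nt bins the median for Ina was 4034 to 8514 reads over the first 3 bins of the 6 libraries and 16 to 31 reads in the last, so that the levels of the Ina site and of the 3′ end rest on very different depths. The unconverted share of a gene was summed over the positions that were listed in all 6 libraries and passed the standard filter in none, which were 494 in Ina and 103 in Nefl. In Ina it was 0.0911% and 0.121% (0 h), 0.0843% and 0.0783% (2 h), and 0.0935% and 0.0943% (6 h), which overlap between 0 h and 6 h. In Nefl it was 0.130% and 0.132% (0 h), 0.0797% and 0.108% (2 h), and 0.0858% and 0.0801% (6 h).

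Both 0 h values of Nefl were above the other 4, but no comparison of the share passed in limma for either gene (0.376%, 1.44%, and 0.251% of 1596 genes passed). The lowest adjusted p was 0.0736, for Nefl in 0 h vs. 6 h (log2 difference -0.83, SE 0.20). Since every position in this share has at least 1 unconverted read in each library, the share has a floor that falls as coverage rises. For Nefl that floor was 0.0530% and 0.0622% at 0 h and between 0.0226% and 0.0277% in the later libraries, so the share and the floor moved in the same direction. The part of the floor in the difference was not tested.

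Genes that act on or with neurofilaments were followed as fixed lists, with coverage over positions listed in all 6 libraries and all differences given on the log2 scale against 0 h. Of 11 other intermediate filament genes 1 could be tested, Vim (vimentin, of glia and immature cells), which was higher by 0.34 at 2 h (adjusted p = 0.0218) and by 0.99 at 6 h (adjusted p = 1.46e-04). In the fit over all listed positions 6 of the 11 were tested. By 6 h, 3 of them were higher than at 0 h (Vim, Nes, and Lmna) and 3 lower (Gfap, Synm, and Lmnb1, at -0.64, -0.94, and -0.76). In that comparison 33.7% of genes passed as higher and 34.3% as lower. At 2 h, 2 of the 6 passed as higher (Vim and Lmna) and 2 as lower (Synm and Lmnb1, at -0.63 and -1.02), where 38.9% of genes passed. Prph, the intermediate filament peripherin of peripheral neurons, had 5 to 68 listed positions per library and was not tested.

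Of 11 kinases and phosphatases that act on neurofilament tails, 7 were tested, and at 6 h, against 0 h, 4 passed as higher and 2 as lower (median 0.28, against -0.02 over all 1613 genes). In that comparison 59.1% of all genes passed, 435 as higher and 519 as lower. Cdk5r1, the p35 activator of the neurofilament kinase Cdk5, fell by 1.01 at 2 h (adjusted p = 1.01e-04) and fell by 1.14 at 6 h (adjusted p = 3.36e-05). Ppp2ca, a catalytic subunit of protein phosphatase 2A, was higher by 0.44 (adjusted p = 0.00855) and 0.76 (adjusted p = 3.37e-04). Mapk3, a MAP kinase, fell by 0.37 at 6 h (adjusted p = 0.0166), and the glycogen synthase kinase genes Gsk3a and Gsk3b were higher by 0.28 (adjusted p = 0.0205) and 0.46 (adjusted p = 0.00557). At 2 h, against 0 h, Ppp2ca (higher) and Cdk5r1 (lower) passed of the 7, where 26.3% of all genes passed. In the fit over all listed positions Gsk3a passed at 2 h too (0.35, adjusted p = 0.00617), with 3 of 10 kinases and phosphatases past the test against 38.9% of all genes.

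Of 8 linkers and transport genes 7 were tested, and at 6 h, against 0 h, 3 passed as higher (Macf1, Kif5c, and Dync1h1) and 1 as lower (median 0.29), where 59.1% of all genes passed. The lower one was Kif5a, a kinesin heavy chain that carries neurofilaments along axons, which fell by 0.35 at 2 h (adjusted p = 0.00542) and fell by 0.66 at 6 h (adjusted p = 1.47e-04). Its relative Kif5c was at 0.24 at 6 h (adjusted p = 0.0126) and Kif5b at 0.35 (adjusted p = 0.355). Of 5 genes of neurofilament turnover and mRNA binding 3 were tested. Trim2, a ubiquitin ligase for Nefl, fell by 0.49 at 2 h (adjusted p = 0.0180), stood at 0.19 at 6 h (adjusted p = 0.166), and was higher by 0.68 at 6 h than at 2 h (adjusted p = 0.00308). Stub1, a chaperone-linked ubiquitin ligase, was at -0.24 at 6 h (adjusted p = 0.0126), and Tardbp, whose protein TDP-43 binds Nefl mRNA, at 0.16 (adjusted p = 0.0323). In the fit over all listed positions these differences from 0 h did not pass (Trim2 at 2 h -0.28, adjusted p = 0.0536; Stub1 at 6 h -0.11, adjusted p = 0.222; Tardbp at 6 h 0.12, adjusted p = 0.107), while Trim2 passed as higher at 6 h than at 0 h (0.32, adjusted p = 0.0181). Arhgef28, whose protein binds Nefl mRNA, could be tested only in that fit. It stood at 0.20 at 2 h (adjusted p = 0.269) and was lower at 6 h, by a log2 difference of -1.37 from 0 h (SE 0.13, adjusted p = 1.01e-04) and of -1.57 from 2 h (adjusted p = 8.03e-05). In that fit 68.1% of all genes passed between 0 h and 6 h.

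Markers of the labelled cells and of others were read in the same way. The neuronal genes Tubb3, Map2, Rbfox3, and Snap25 were listed in every library, Tubb3 with a median coverage of 6164 to 16450 reads. Tubb3, a neuronal tubulin, fell by 1.02 at 2 h (adjusted p = 1.26e-04) and fell by 1.28 at 6 h (adjusted p = 2.97e-05), while Snap25, of the synaptic release machinery, was higher by 0.34 at 6 h (adjusted p = 0.00191). In the fit over all listed positions Rbfox3, which encodes the neuronal nuclear protein NeuN, was higher by 0.26 at 2 h (adjusted p = 0.0337) and lower at 6 h (-0.33, adjusted p = 0.00725), and Map2 passed at neither time (-0.03, adjusted p = 0.850, and 0.23, adjusted p = 0.148). Of 5 activity-induced genes (Fos, Npas4, Arc, Egr1, and Bdnf), all listed in at least 1 library, only Fos could be tested. In the fit over all listed positions Fos was higher by 7.11 at 2 h and 6.26 at 6 h.

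Genes of other cell types were also present: all 4 astrocyte and all 4 oligodendrocyte genes were listed, with 1142 to 1610 and 507 to 748 positions per library, as were 2 of 3 microglia genes (66 to 172 positions) and 4 of 5 genes of progenitors and dividing cells (506 to 1179 positions). Csf1r and Sox2 were listed nowhere. Slc1a3, an astrocyte transporter, fell by 0.33 at 6 h (adjusted p = 0.00180), and Olig1, of the oligodendrocyte lineage, fell by 0.65 at 2 h (adjusted p = 0.00135) and was higher by 0.79 at 6 h than at 2 h (adjusted p = 4.38e-04). Between 0 h and 6 h the Olig1 difference of 0.15 did not pass over positions listed in all 6 libraries (adjusted p = 0.0930). In the fit over all listed positions Olig1 and Olig2 were higher at 6 h than at 0 h by 0.24 (adjusted p = 0.0123) and 0.49 (adjusted p = 6.42e-04), and Mbp, of myelin, stood at 0.43 (adjusted p = 0.0953). Of the 4 astrocyte genes 3 were lower at 6 h in that fit, Gfap (-0.64, adjusted p = 0.00251), Aldh1l1 (-0.60, adjusted p = 7.92e-05), and Slc1a3 (-0.19, adjusted p = 0.0192), and Aqp4 stood at -0.25 (adjusted p = 0.284). Between 0 h and 6 h, 34.3% of all 6126 genes of that fit passed as lower and 33.7% as higher. The microglial receptor gene Cx3cr1 was lower at 2 h (-0.51, adjusted p = 0.00650) and at 6 h (-0.92, adjusted p = 1.62e-04). Among the genes of progenitors and dividing cells, Nes was higher at 6 h (0.75, adjusted p = 2.20e-04), Top2a was lower (-0.63, adjusted p = 0.00212), and Mki67 stood at -0.28 (adjusted p = 0.345). At 2 h, Aldh1l1 (-0.22, adjusted p = 0.0201) and Olig1 (-0.53, adjusted p = 7.96e-04) also passed as lower, and no gene of progenitors and dividing cells passed. The part of cell composition in the coverage of the members was not tested.

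The genes nearest to the members in coverage over the 6 libraries were found by Euclidean distance of log2 values after each gene's mean was removed. For Nefl these were Ndel1 (0.20), Syt4 (0.21), and Slc2a3 (0.23), where the median gene of 1612 lay at 1.29. For Ina they were Ddx17 (0.10), Pqbp1 (0.11), and Pou3f3 (0.13), with a median of 0.72. For Nefm, in the fit over all listed positions, they were Slc6a6 (0.13), Slc7a1 (0.17), and Nr2f1 (0.18), with a median of 1.54 over 6125 genes. Nefm was not among the genes searched for Nefl and Ina.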

How the data were processed

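RNA BS-seq of poly(A) RNA was analysed in 6 libraries, 2 biological replicates per time point. The authors trimmed the reads with Trim Galore, aligned them to GRCm38 (mm10) with meRanTK, and called positions with meRanCall; R 4.1.1 is named in the processing notes. They deposited, per library and position, read counts (coverage, unconverted C reads, other bases), with no normalization, and the methylation level as a fraction, which was recomputed from the counts. Deposited positions have at least 10 reads and at least 1 unconverted read. The 6 libraries listed 1559828 to 2374392 cytosines, with a median coverage of 324 to 480 reads. The p-values and score deposited by the caller were not used.

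The members and lists were chosen with earlier results of these data known. Positions of the 4 genes were taken by the gene column. High-confidence positions came from the study's list, and all counts from the deposited lists; read-level filters were not repeated. Sites listed in all 4 libraries of a comparison were tested by Fisher's exact test on summed reads (two-sided). Lower-level positions (at least 100 reads in each library, level of at least 1%), log2 mean coverage per gene (at least 20 positions listed in all 6 libraries, centred on the library median), and the unconverted share per gene were tested with limma 3.58.1 in R 4.3.3 (pseudocount 0.5 for log2 odds). P-values were Benjamini-Hochberg adjusted over all features of a comparison and passed at 0.05. Wilson and Newcombe intervals are at 95%. Named positions were those passing the standard filter in both replicates of a time point or on the study's list, the 3 highest per gene with at least 100 reads in each library, and aligned cytosines of the other members. Of the fixed gene lists, values are given for genes that passed (1 gene of the kinase list is not reported here), and for each member the 3 nearest genes. Transcripts came from GENCODE M21 and windows from the GRCm38 genome of RefSeq, and translated proteins were aligned with MAFFT 7.526. Alternatives were limma for sites, edgeR 4.0.16, other minimums, scalings and position sets, the replicate block, leaving out each library, and the fit over all listed positions, added after seeing the data. The fits were tested on simulated data. Python 3.11.15 with scipy 1.17.1 and pandas 2.3.3 was used.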

Additional observations from a re-analysis of the deposited data

How the results depend on the processing

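Of 501 alternative values, none reversed the direction of a difference that passed its test. In 15 of them a difference that did not pass changed sign, and 14 of these left out 1 library. Leaving out each library, the Ina site gave -0.35 to 0.02 points for 6 h against 0 h (limma -0.03 to 0.00 in log2 odds). In log2 odds, Ina chr19:47024966 gave -0.38 to 1.06 (2 h against 0 h), -0.44 to 1.01 (6 h against 0 h), and -0.54 to 0.43 (6 h against 2 h), Ina chr19:47024973 gave -0.62 to 0.27 (2 h against 0 h), Nefm chr14:68124234 gave -0.56 to 0.18 (6 h against 0 h), and Nefl chr14:68088350 gave -0.78 to 0.63 (6 h against 2 h). The Ina unconverted share for 6 h against 2 h gave -0.18 to 0.20, and -0.04 over all positions. Beside these, Nefl coverage for 6 h against 2 h in the fit over all listed positions was 0.03, and -0.02 without 6 h replicate 2. The number of m5C sites passing (2 h against 0 h, 6 h against 0 h, and 6 h against 2 h) was 246, 165, and 194 by Fisher's exact test and 99, 0, and 44 by limma, and 343 in 2 h vs. 6 h over all positions passing the standard filter. The Nefm site missed the threshold in limma in both comparisons it passed (log2 odds 0.51 and -0.86), and leaving out each library gave 1.23 to 6.13 points for 0 h vs. 2 h. Genes passing in coverage numbered 425, 954, and 764, against 733, 1626, and 1362 with at least 5 positions per gene and 2381, 4169, and 3975 in the fit over all listed positions, where more genes were tested; leaving out each library gave 175 to 526 for 0 h vs. 2 h and 433 to 890 for 2 h vs. 6 h. Nefl in 2 h vs. 6 h passed in edgeR (0.16, adjusted p = 0.0308). Nefm in 0 h vs. 2 h did not pass with at least 5 positions (0.18), and gave 0.20 to 0.21 without each library. Genes passing in the unconverted share numbered 6, 23, and 4, against 3, 9, and 0 without centring, 14 and 7 (first and last comparison) over all positions, and 0 to 3, 0 to 25, and 0 to 1 without each library. The cause of these shifts was not tested where the number of features tested was the same.

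Replicate numbers shared between time points were not taken to pair the samples, since the labels do not say what they share. Only 2 pairs exist, and same-numbered deviations in coverage correlated at 0.442 (0 h and 2 h), -0.305 (0 h and 6 h), and -0.301 (2 h and 6 h). In the same order they were 0.098, -0.004, and -0.053 for lower-level positions and 0.069, 0.124, and 0.022 for the unconverted share. These correlations cannot decide whether the samples are paired. With the replicate block, sites passing numbered 254, 164, and 196, genes passing in coverage 383, 946, and 748, and genes passing in the share 7, 31, and 1; no call on a member changed.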

Other observations

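The study's list also names Nefh for a position on the plus strand, chr11:4947566, where Nefh lies on the minus strand and the gene column of the lists names no gene, so it was not counted as a member. Its level was 7.50% of 40 reads and 23.1% of 26 at 0 h, 20% of 45 and 14.3% of 63 at 2 h, and 15.6% of 45 in 6 h replicate 2, and it was not listed in 6 h replicate 1. The time points overlapped.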
